A study of Mus musculus with 6 samples.

Results

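The genes of prostaglandin synthesis, breakdown and reception were followed in mammary tumors of NeuT/ATTAC mice given IgG or anti-PD-1 mAb. The 10 genes were taken by symbol from the mouse annotation, and they are 10 of the 54532 gene IDs measured. They are the cyclooxygenases Ptgs1 and Ptgs2, the synthases Ptges and Ptgis, the dehydrogenase Hpgd, and the receptors Ptgfr, Ptger1, Ptger2, Ptger3 and Ptger4. They were chosen by name, with Ptgfr selected on its FPKM, which separated the groups, and the list was put together with results of this comparison known. The group differences of the 10 genes are therefore given as a description, without a test.

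Prostaglandins are lipid signals made from arachidonate, which phospholipases release from membranes. The cyclooxygenases turn it into the unstable PGH2, Ptgs1 as the constitutive and Ptgs2 as the inducible enzyme, and terminal synthases turn PGH2 into the single prostaglandins. The products act on G protein-coupled receptors of neighboring cells, and Hpgd inactivates them after uptake. In mammary tumors the pathway is best known for Ptgs2 and PGE2, which favor angiogenesis and dampen the immune response.

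RNAseq gave 3 libraries of mammary tumors from IgG-treated mice and 3 from mice treated with anti-PD-1, each called a tumor here, and values are listed in the order of replicates 1 to 3. All the mice carried MMTV-NeuT, which drives Erbb2 from the MMTV promoter in mammary epithelium, and FAT-ATTAC, with which AP20187 kills adipocytes. All received 0.4 mg/kg AP20187 i.p. from 6 weeks of age to induce fibrosis, biweekly by the labels and triweekly by the methods. The antibody, 100 μg of IgG or of anti-PD-1 mAb, was given 2 times a week from week 8 on, so that no group was free of AP20187. In a legend of the paper the RNA was said to be pooled by group, and the labels do not say whether a library is a single tumor.

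The deposited values are FPKM, fragments scaled to exon length and library size, so that levels can be compared between genes. Multiplied by exon length, between 97.0% and 97.3% of the values above 0 in a tumor came within 0.1 of a whole number of reads, and between 21075641 and 23852764 reads per tumor were recovered in this way. Luminal epithelial markers were abundant in every tumor, with Epcam between 690 and 1150 FPKM and Erbb2, the transgene's gene, between 20.3 and 31.4 FPKM. The summed FPKM of 8 luminal markers ran from 2147 to 3031 in IgG and from 3059 to 3974 in anti-PD-1 tumors, and that of 8 T cell markers from 2.42 to 6.64 and from 1.51 to 2.33. The groups did not overlap in these sums, and 3 T cell markers (Cd3d, Cd3e and Trac) were at 0 in 1 tumor, anti-PD-1 replicate 2, which also had the lowest T cell sum. In the 9 other lists the sums overlapped, and no marker was at 0 in all tumors. They ran from 87.5 to 245.6 in IgG and 96.2 to 353 in anti-PD-1 tumors for fibroblasts, from 218 to 387 and 284 to 459 for macrophages, from 18.1 to 24.2 and 11.8 to 23.1 for endothelial cells, and from 22.5 to 28.3 and 16.9 to 42.7 for basal cells. Neutrophil markers gave 2.97 to 12.7 and 6.25 to 26.0, adipocyte markers 5.71 to 10.6 and 3.78 to 9.17, smooth muscle markers 30.0 to 44.9 and 34.5 to 60.8, skeletal muscle markers 1.60 to 138.4 and 0.645 to 149.4. The mast cell list gave 61.5 to 111.5 and 42.95 to 67.7, most of it Kit, which mammary epithelium also expresses. In bulk tumors, fewer cells of a type and less RNA per cell cannot be told apart.

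The promoters of Ptgfr and Ptger4, the members whose groups did not overlap, are shown with those of Hpgd and Ptgs2, the enzymes of breakdown and of induced synthesis. Each run is the 250 bases before the start of the gene in RefSeq (GRCm38.p6), 5′ to 3′ on the gene's strand, and capitals mark the matches to the motifs searched on both strands. They lie at chr3:151837529-151837778 (minus strand), chr15:5244188-5244437 (minus strand), chr8:56294302-56294551 (plus strand) and chr1:150099781-150100030 (plus strand).
Ptgfr: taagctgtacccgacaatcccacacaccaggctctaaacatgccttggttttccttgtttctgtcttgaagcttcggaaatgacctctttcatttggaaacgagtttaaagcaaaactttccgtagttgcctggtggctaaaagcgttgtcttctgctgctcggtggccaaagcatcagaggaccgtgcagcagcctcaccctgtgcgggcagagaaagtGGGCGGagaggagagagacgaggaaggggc
Ptger4: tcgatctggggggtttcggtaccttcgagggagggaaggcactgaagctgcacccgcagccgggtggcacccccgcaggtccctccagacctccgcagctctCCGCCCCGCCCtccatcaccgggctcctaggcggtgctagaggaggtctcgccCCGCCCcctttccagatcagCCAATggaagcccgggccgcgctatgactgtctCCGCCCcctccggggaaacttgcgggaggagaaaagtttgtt
Hpgd: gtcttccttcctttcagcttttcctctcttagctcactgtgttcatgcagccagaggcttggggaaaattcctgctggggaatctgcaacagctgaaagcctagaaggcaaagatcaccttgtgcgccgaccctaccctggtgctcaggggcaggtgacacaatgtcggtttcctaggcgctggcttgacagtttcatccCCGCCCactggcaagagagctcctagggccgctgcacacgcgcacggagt
Ptgs2: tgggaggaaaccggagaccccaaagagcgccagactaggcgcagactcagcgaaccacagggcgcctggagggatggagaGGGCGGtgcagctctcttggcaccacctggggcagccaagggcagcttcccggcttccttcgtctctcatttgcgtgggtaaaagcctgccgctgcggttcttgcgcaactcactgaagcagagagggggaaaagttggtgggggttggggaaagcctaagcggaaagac
The motifs were the TATA box (TATAAA), the CRE core (TGACG, which the full CRE TGACGTCA contains), AP-1 (TGANTCA), the E box (CACGTG), the GC box (GGGCGG) and the CCAAT box (CCAAT). Of the 10 genes 8 had a promoter in the table, Ptger1 and Ptgis being the others. GC boxes were found before Ptgfr, Ptger4, Hpgd, Ptgs2, Ptges and Ptger3, and 32.7% of all 32851 promoters of this length hold one. Ptger4 had 4 of them between 148 and 37 bases before its start, a pair of which overlap by 1 base, and Ptgfr had 1, between 30 and 25 bases before its start. GENCODE M21 starts Ptgfr farther upstream than RefSeq, so that the last 102 bases of the Ptgfr run, its GC box included, lie inside the gene as placed by M21. So do all 250 bases of the Ptges window, and none in the other 6. A CCAAT box was found before Ptger4 and Ptger2, against 33.8% of all promoters. No TATA box, CRE core, AP-1 site or E box as spelled here was in the window of any of the 8 genes, and 12.4%, 17.8%, 6.75% and 6.02% of all promoters hold them. Only these 250 bases were searched, so that sites past the annotated start or farther upstream would be missed. The upstream GC content was 52% for Ptgfr, 66.8% for Ptger4, 56.8% for Hpgd and 61.6% for Ptgs2, against a median of 52.4%.

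Ptgfr, the FP receptor for PGF2α, had the widest gap between the groups among the 10 genes. Its FPKM was 0.617, 0.0430 and 0.109 in IgG against 2.08, 3.06 and 3.69 in anti-PD-1 tumors. No IgG tumor reached the anti-PD-1 range, the lowest value of which was 3.37 times the highest IgG value. These values stand on 92, 7 and 18 reads in IgG and on 361, 503 and 594 reads in anti-PD-1 tumors. The 95% Poisson interval of the highest IgG tumor ended at 0.756 FPKM and that of the lowest anti-PD-1 tumor began at 1.87 FPKM. Such intervals cover counting error only. The IgG mean was 0.256 ± 0.314 FPKM (SD, n = 3) and the anti-PD-1 mean 2.94 ± 0.811 FPKM (SD, n = 3), a ratio of 11.5. The IgG tumors differed among themselves by 14.3 times and the anti-PD-1 tumors by 1.77 times. On log2(FPKM + 1), the scale of all fold changes given here unless another is named, the difference was 1.66 (standard error 0.26). The added 1 compresses a gene this low, and the difference was 3.42 with 0.1 added in its place and 4.33 with limma's voom on the recovered reads, an alternative chosen after seeing the data. With each tumor left out in turn it stayed between 1.53 and 1.86. The luminal marker sum, most of it Epcam, Krt8, Krt18 and Cldn3, was also higher in the anti-PD-1 tumors, while 2 of the 8 markers had lower means there (Krt19, with a log2 fold change of -2.03, past both thresholds, and Elf5, -0.60). Their part in the result was not tested.

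Ptgfr (ENSMUSG00000028036) lies on chromosome 3 from 151796502 to 151837630 (GRCm38, minus strand), with 6778 bases of exon. The TEC gene Gm43618 on the opposite strand shares 329 of these bases (4.85%) and had at most 0.159 FPKM. The 7 tested protein-coding genes within 500 kb of Ptgfr had log2 fold changes from -0.59 (Ifi44) to 0.68 (Gipc2), with a median of 0.13. None of the 7 came near the difference of Ptgfr. Groups did not overlap in 1 that was higher (Fubp1) and 1 that was lower (Miga1), against 9.3% and 8.75% of all genes tested. The neighbors were looked up after the values of Ptgfr were seen.

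**Figure D1:**
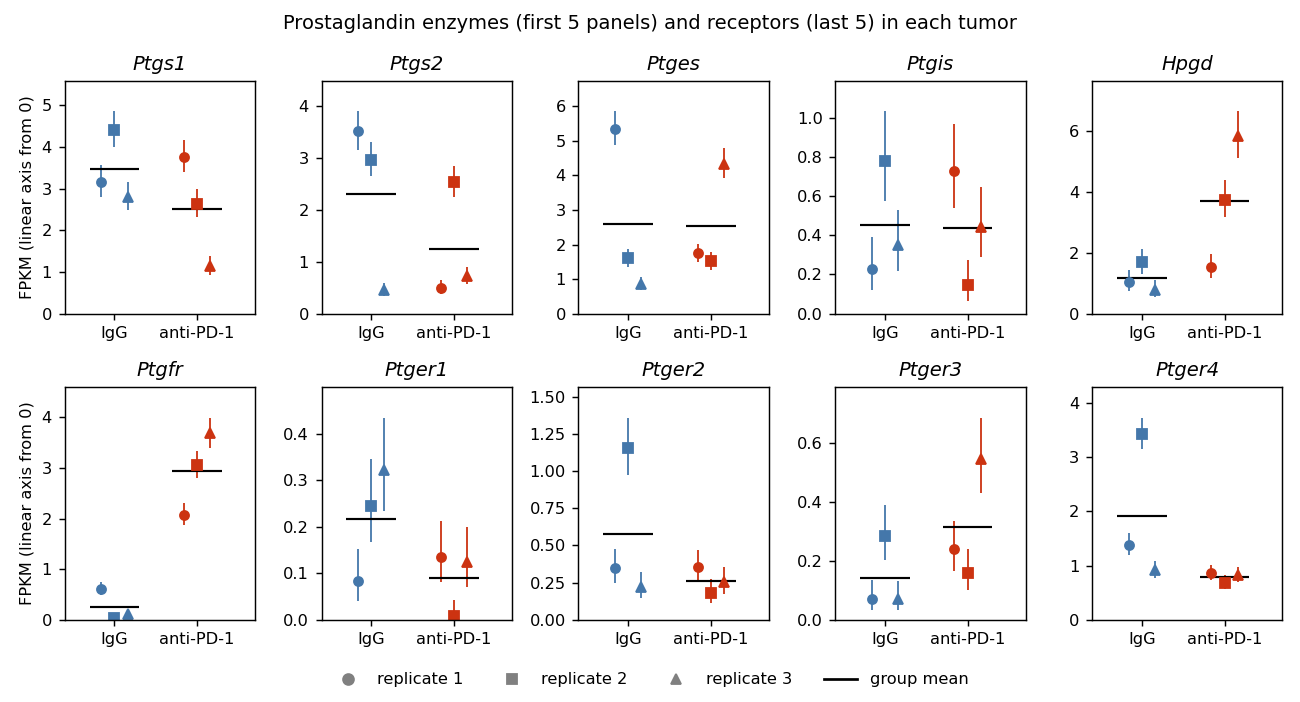
FPKM of the 10 genes in each tumor (linear axes from 0, a separate scale per panel), IgG in blue and anti-PD-1 in red. Points are tumors with 95% Poisson intervals of their reads, lines are group means, and in Ptgfr and Ptger4 alone the points of the groups do not overlap.

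The EP receptors bind PGE2, Ptger2 and Ptger4 raising cAMP, Ptger3 mainly lowering it and Ptger1 raising calcium. Ptger4 had the highest FPKM of them in every tumor, with 59.9% to 73.3% of the summed EP receptor FPKM in IgG and 47.2% to 66.1% in anti-PD-1 tumors. Its FPKM was 1.39, 3.43 and 0.918 in IgG against 0.858, 0.682 and 0.823 in anti-PD-1 tumors. All anti-PD-1 tumors lay below all IgG tumors, but the gap was narrow, since the lowest IgG tumor was 1.07 times the highest anti-PD-1 tumor. Between 110 and 547 reads stood behind these values, and the Poisson intervals of IgG replicate 3 (0.777 to 1.08 FPKM) and anti-PD-1 replicate 1 (0.725 to 1.01 FPKM) overlap.

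The log2 fold change of Ptger4 was -0.61 (standard error 0.32). It rested in good part on IgG replicate 2, and was -0.26 without that tumor and -1.07 with voom. The T cell marker sum, which was also lower in anti-PD-1 tumors, was highest in the same tumor (6.64, against 2.42 and 2.67 in the other IgG tumors), and its part in the result was not tested. The gap in that sum was narrow, since the highest anti-PD-1 tumor had 2.33. Lck alone of the 8 markers passed the FPKM filter, and the groups overlapped in all of them but Cd3d and Lck. Ptger4 (ENSMUSG00000039942) lies on chromosome 15 from 5206661 to 5244187 (minus strand). Of its 6648 exon bases, 1015 (15.3%) are shared with the processed pseudogene Gm15937, listed at 0 FPKM in all tumors, and 82 (1.23%) with Ttc33 at 10.6 to 18.0 FPKM. Both lie on the opposite strand, and whether counting used strand is not given in the sources used here. The 4 tested protein-coding neighbors within 500 kb had log2 fold changes between -0.25 and 0.22.

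Ptger2, Ptger3 and Ptger1 had a mean under 0.5 FPKM over the 6 tumors and did not enter the comparison across genes. Ptger2 ran from 0.221 to 1.16 FPKM in IgG and from 0.183 to 0.354 FPKM in anti-PD-1 tumors, with IgG replicate 2 again the highest. Ptger3 ran from 0.0719 to 0.286 FPKM in IgG and from 0.159 to 0.548 FPKM in anti-PD-1 tumors. In both genes the groups overlapped. Ptger1 ran from 0.0832 to 0.323 FPKM in IgG and from 0.00755 to 0.136 FPKM in anti-PD-1 tumors, and anti-PD-1 replicate 2 had 1 read. The values of Ptger1 stand on at most 43 reads per tumor and are uncertain. In GRCm38, Ptger1 (ENSMUSG00000019464) lies on chromosome 8 from 83666678 to 83672753, Ptger2 (ENSMUSG00000037759) on chromosome 14 from 44988195 to 45003820 and Ptger3 (ENSMUSG00000040016) on chromosome 3 from 157566892 to 157645888, all on the plus strand. In the fit without a filter the log2 fold changes were -0.27 (standard error 0.23) for Ptger2, 0.20 (standard error 0.14) for Ptger3 and -0.16 (standard error 0.09) for Ptger1.

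The make-up of these receptors differed between the groups, through Ptgfr for the most part. Ptgfr made up 24.6%, 0.834% and 6.62% of the summed FPKM of the 5 receptors in IgG against 56.7%, 74.8% and 67.9% in anti-PD-1 tumors. Ptger4 made up 55.3%, 66.5% and 55.9% in IgG against 23.4%, 16.7% and 15.1% in anti-PD-1 tumors. Ptger4 was thus the leading receptor gene of every IgG tumor and Ptgfr that of every anti-PD-1 tumor. Since Ptgfr was selected on these FPKM values and is part of the sum, this change of shares follows in part from that choice. Among the EP receptors alone, the Ptger4 share overlapped between groups (59.9% to 73.3% in IgG, 47.2% to 66.1% in anti-PD-1 tumors). The sum of the 5 receptors also overlapped, with 2.51, 5.16 and 1.64 FPKM in IgG against 3.67, 4.09 and 5.44 FPKM in anti-PD-1 tumors.

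**Figure D2:**
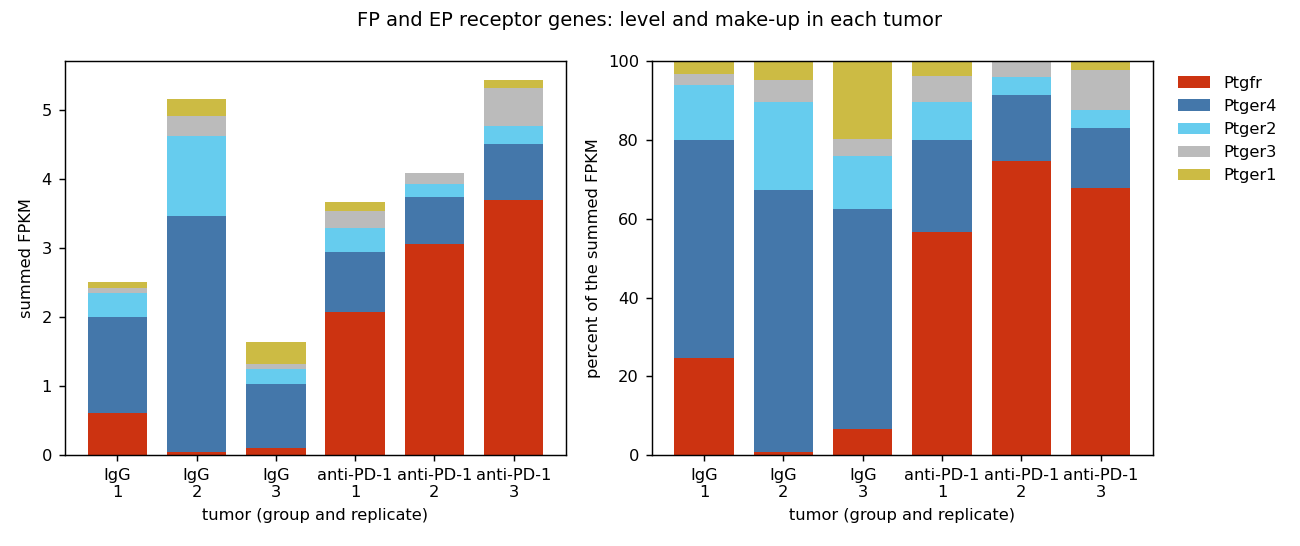
Summed FPKM of the FP and EP receptor genes in each tumor (left) and the percent of that sum each gene made up (right), as stacked bars from 0. Ptgfr takes 56.7% to 74.8% in the anti-PD-1 tumors and at most 24.6% in the IgG tumors, and Ptger4 takes the largest part in the IgG tumors. Ptgfr was selected because these values separated the groups.

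Hpgd, the 15-hydroxyprostaglandin dehydrogenase that inactivates PGE2 and PGF2α, had a higher mean in anti-PD-1 tumors with groups that overlapped. Its FPKM was 1.05, 1.68 and 0.779 in IgG against 1.53, 3.75 and 5.85 in anti-PD-1 tumors. Replicates 2 and 3 of the anti-PD-1 group lay above all IgG tumors, while replicate 1 lay below IgG replicate 2. The IgG mean was 1.17 ± 0.464 FPKM (SD, n = 3) and the anti-PD-1 mean 3.71 ± 2.16 FPKM (SD, n = 3), a ratio of 3.17, on 32 to 234 reads per tumor. The log2 fold change was 1.03 (standard error 0.37), and it ran from 0.70 without anti-PD-1 replicate 3 to 1.42 without anti-PD-1 replicate 1. Hpgd (ENSMUSG00000031613) lies on chromosome 8 from 56294585 to 56321043 (plus strand) and shares no exon base with another gene. The 2 tested protein-coding genes within 500 kb, Cep44 and Fbxo8, had log2 fold changes of -0.22 and -0.24.

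Both cyclooxygenases overlapped between the groups and had lower means in anti-PD-1 tumors. Ptgs2 had 3 high and 3 low tumors, with both kinds in each group, at 3.51, 2.97 and 0.456 FPKM in IgG against 0.495, 2.53 and 0.726 FPKM in anti-PD-1 tumors. The high tumors had 281 to 354 reads and the low tumors 51 to 79. The log2 fold change of Ptgs2 was -0.50 (standard error 0.51), within the spread of the tumors, and was -1.02 when IgG replicate 3 was left out and -0.20 when IgG replicate 1 was. Ptgs1 was steadier, with 3.17, 4.41 and 2.81 FPKM in IgG against 3.76, 2.63 and 1.14 FPKM in anti-PD-1 tumors. For Ptgs1 the log2 fold change was -0.40 (standard error 0.32), and -0.08 without anti-PD-1 replicate 3, the lowest tumor. Ptgs2 was above Ptgs1 in 1 tumor, IgG replicate 1, where the ratio of their FPKM was 1.11, and the ratio lay between 0.132 and 0.961 in the others. Ptgs2 (ENSMUSG00000032487) lies on chromosome 1 from 150100031 to 150108227 and Ptgs1 (ENSMUSG00000047250) on chromosome 2 from 36230426 to 36252272, both on the plus strand.

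Ptges, the inducible PGE2 synthase, was highest in 1 tumor of each group. It had 5.34, 1.60 and 0.855 FPKM in IgG against 1.75, 1.51 and 4.34 FPKM in anti-PD-1 tumors. For Ptges the log2 fold change was 0.09 (standard error 0.49) and took both signs with single tumors left out, at -0.28 for IgG replicate 3 and 0.60 for IgG replicate 1. The high tumors of Ptges were not those of Ptgs2, except for IgG replicate 1. Ptgis, the prostacyclin synthase of vessels and stroma, had 0.230, 0.779 and 0.351 FPKM in IgG against 0.731, 0.145 and 0.443 FPKM in anti-PD-1 tumors, on 9 to 48 reads, and its log2 fold change in the fit without a filter was -0.01 (standard error 0.21). Ptges (ENSMUSG00000050737) lies on chromosome 2 from 30889471 to 30929863, and Ptgis (ENSMUSG00000017969) on the same chromosome from 167191805 to 167240604, both on the minus strand.

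Synthesis and breakdown were set against each other within each tumor. The ratio of Ptges to Hpgd FPKM was 5.07, 0.951 and 1.10 in IgG against 1.14, 0.403 and 0.741 in anti-PD-1 tumors. That of Ptgs2 to Hpgd was 3.34, 1.76 and 0.586 in IgG against 0.323, 0.675 and 0.124 in anti-PD-1 tumors. The groups overlapped in both ratios, since 1 anti-PD-1 tumor lay above 2 IgG tumors in the first and above 1 IgG tumor in the second, and IgG replicate 1 was the highest in both.

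By mean FPKM, the order in IgG tumors was Ptgs1, Ptges, Ptgs2, Ptger4, Hpgd, Ptger2, Ptgis, Ptgfr, Ptger1 and Ptger3, and each neighboring pair in it overlapped over the 3 tumors. In anti-PD-1 tumors the order was Hpgd, Ptgfr, Ptges, Ptgs1, Ptgs2, Ptger4, Ptgis, Ptger3, Ptger2 and Ptger1. There, Ptger2 and Ptger1 were the only neighbors without overlap. Ptgfr stood at place 8 in IgG and at place 2 in anti-PD-1 tumors, and Hpgd at place 5 and at place 1.

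The 10 genes were set beside all genes in a limma comparison of log2(FPKM + 1) (two-sided, Benjamini-Hochberg adjustment), which took the 15070 genes with a mean of at least 0.5 FPKM. Nothing in the labels says that the replicates were separate mice, and p-values measure the spread between these samples. Of the 10 genes 6 passed this filter, from Ptger4 (mean 1.35 FPKM) upward, and Ptgis (mean 0.446 FPKM) was the first below it. Groups did not overlap in 1 of the 6 with higher values in anti-PD-1 tumors (Ptgfr), against 9.3% of all genes tested, and in 1 with lower values (Ptger4), against 8.75%. With an unadjusted p below 0.05 and at least a 1.5-fold change, the p and fold thresholds of the study, whose further minimum on a raw score was not applied here, 2 of the 6 were higher (Ptgfr and Hpgd), against 3.9% of all genes, and 0 were lower, against 4.55% (8.44% in either direction). Ptgfr helped to choose the list and passed the filter through its anti-PD-1 tumors, so that nothing is read from these counts. Of all 15070 genes, 0 had an adjusted p under 0.05 with limma and 0 with voom, while 1848 (12.3%) had an unadjusted p under 0.05. The 6 genes had 3 log2 fold changes above 0 and 3 below, and 50.8% of all genes tested were above 0. Their chromosomes (1, 2, 3, 8 and 15) had medians between -0.05 and 0.17, while chromosomes 4 and 9, which hold none of the 10 genes, had medians of -0.40 and -0.36.

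Of 30 further genes of the pathway, listed by role, 16 passed the filter. At the same thresholds, 0 of the 16 were higher and 0 lower, at backgrounds of 3.9% and 4.55%, and their median log2 fold change was 0.04, against 0.01 for all genes tested. By sign, 9 were above 0 and 7 below. Among the 5 tested genes of arachidonate release, Mgll, the monoacylglycerol lipase, and Pla2g6, a calcium-independent phospholipase, had the highest mean FPKM over the 6 tumors. In IgG tumors alone the mean of Pla2g4a (9.18 FPKM) lay above that of Pla2g6 (6.29 FPKM). Mgll had a log2 fold change of 0.76 (SE 0.38, limma-adjusted p = 0.455) and Pla2g6 one of 0.62 (SE 0.30, limma-adjusted p = 0.444). The cytosolic phospholipase Pla2g4a, named after its values were seen as the enzyme that feeds the cyclooxygenases, had 6.92, 16.1 and 4.49 FPKM in IgG against 3.98, 5.49 and 4.77 FPKM in anti-PD-1 tumors, with IgG replicate 2 standing above the rest.

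Among the 6 further synthases tested, Ptges3, a co-chaperone also described as a PGE2 synthase, and Prxl2b, a PGF2α synthase, had the highest mean FPKM over the 6 tumors. In anti-PD-1 tumors alone the mean of Ptges2 (13.5 FPKM) lay above that of Prxl2b (13.0 FPKM). The log2 fold change of Ptges3, which has processed pseudogenes that could share its reads, was 0.29 (SE 0.22, limma-adjusted p = 0.616). Prxl2b had 10.9, 15.4 and 14.8 FPKM in IgG against 11.1, 14.0 and 13.8 FPKM in anti-PD-1 tumors, a log2 fold change of -0.06 (SE 0.18, limma-adjusted p = 0.909). Ptgds, the lipocalin-type PGD2 synthase, had the largest difference of the further pathway genes and was named after its values were seen. It ran from 0.354 to 4.93 FPKM in IgG and from 1.73 to 14.5 FPKM in anti-PD-1 tumors, with a log2 fold change of 1.17 (SE 0.72, limma-adjusted p = 0.535).

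Of the other receptor genes, Ptgfrn was the only one to pass the filter. It encodes a membrane protein that associates with the FP receptor and is reported to inhibit it, and had a log2 fold change of 0.27 (SE 0.34, limma-adjusted p = 0.770). That fold change was -0.03 without anti-PD-1 replicate 1. The thromboxane receptor gene Tbxa2r ran from 0.152 to 0.592 FPKM in IgG and from 0.0860 to 0.636 FPKM in anti-PD-1 tumors. Ptgdr2, a PGD2 receptor of type 2 lymphocytes, had 0 reads in each of the 6 tumors, which at 3 reads allows up to 0.0443 to 0.0516 FPKM per tumor.

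Slco2a1, the transporter that takes prostaglandins into the cell ahead of Hpgd, and Cbr1, a carbonyl reductase of prostaglandins, led the 4 tested genes of transport and breakdown. Slco2a1 had 18.0, 27.1 and 51.6 FPKM in IgG against 26.8, 15.0 and 21.2 FPKM in anti-PD-1 tumors. Its log2 fold change was -0.50 (SE 0.38, limma-adjusted p = 0.620), and ran from -0.84 with IgG replicate 1 left out to -0.10 with IgG replicate 3 left out. Slco2a1 lies on chromosome 9, where the median was -0.36. Cbr1 was higher in all anti-PD-1 tumors than in any IgG tumor, with 10.5, 9.50 and 13.0 FPKM against 14.8, 14.0 and 13.9 FPKM. Its log2 fold change of 0.36 (SE 0.16, limma-adjusted p = 0.424) was under the 1.5-fold threshold.

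**Figure D3:**
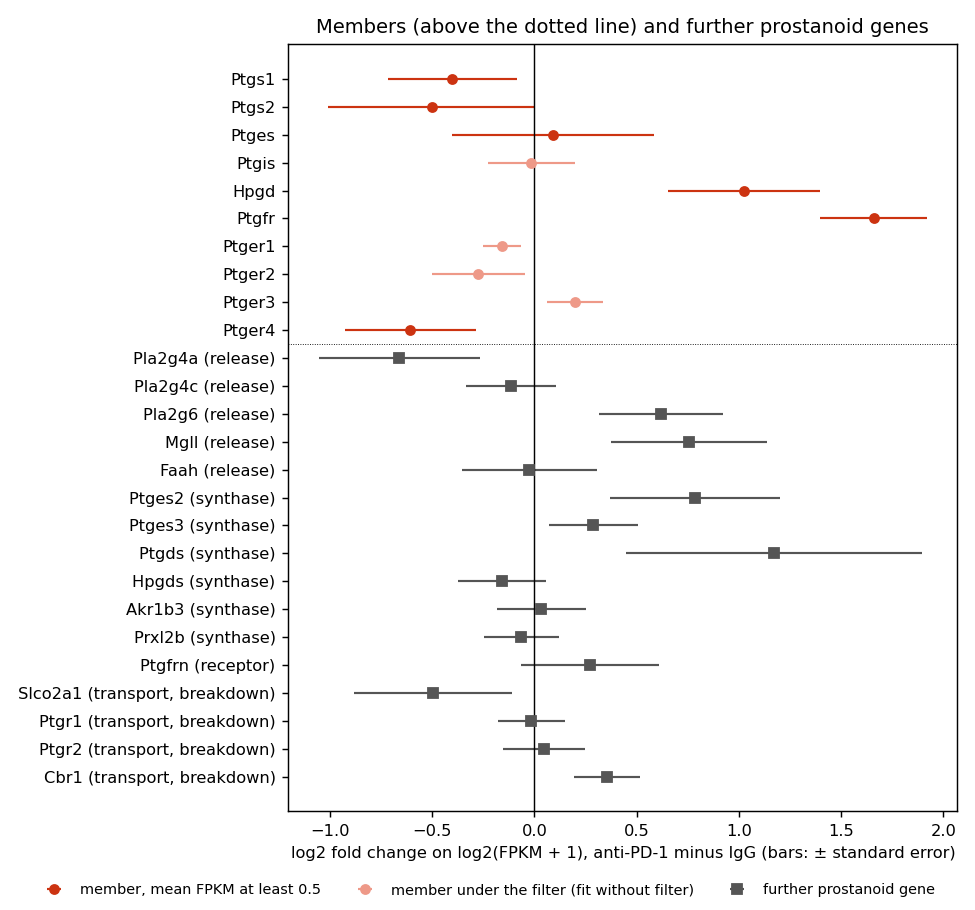
Difference of the group means on log2(FPKM + 1), anti-PD-1 minus IgG, for the 10 genes (circles, pale for the 4 under the filter) and the 16 further prostanoid genes tested (squares), with bars of ± 1 standard error. Ptgfr at 1.66 lies farthest to the right, and the further genes lie between -0.66 and 1.17.

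The leukotriene branch, in which lipoxygenases act on the same arachidonate, was represented by 5 tested genes of 15. Of these, 1 was lower past both thresholds, at a background of 4.55%, and 0 were higher, at one of 3.9%, and the median log2 fold change was 0.11. The gene was Alox12e, an epidermal lipoxygenase, with 0.305, 1.89 and 1.00 FPKM in IgG against 0.194, 0.219 and 0.0894 FPKM in anti-PD-1 tumors, on 6 to 128 reads. It passed the FPKM filter through its IgG tumors (mean 1.06, against 0.167 in anti-PD-1 tumors), so that nothing is read from this count. Its log2 fold change was -0.75 (SE 0.31, limma-adjusted p = 0.405, 0.142 to 0.665 over the alternatives). The added 1 compresses this low gene too, and the difference was -1.88 with 0.1 added in place of 1 and -2.39 with voom. It passed both thresholds in 6 of 12 alternatives and fell under the FPKM filter without IgG replicate 2. Alox genes are close paralogs, and reads could be shared among them. Lta4h, the leukotriene A4 hydrolase, had a log2 fold change of 0.33 (SE 0.20, limma-adjusted p = 0.521), and Ephx2, the soluble epoxide hydrolase, one of 0.11 (SE 0.27, limma-adjusted p = 0.884), which turned to -0.18 without anti-PD-1 replicate 2. That of Lta4h was 0.18 without IgG replicate 2.

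Genes that respond to cAMP, the messenger of Ptger2 and Ptger4, went both ways. Of 13 listed genes 12 were tested, 1 was higher (Nr4a1) and 1 lower (Pde4b) past both thresholds, at backgrounds of 3.9% and 4.55%, and the median log2 fold change was 0.05. Nr4a1, an immediate early nuclear receptor, had 41.3, 18.3 and 57.7 FPKM in IgG against 73.3, 65.2 and 88.8 FPKM in anti-PD-1 tumors. Its log2 fold change was 1.07 (SE 0.39, limma-adjusted p = 0.370, 0.253 to 0.766 over the alternatives). It was 0.61 without IgG replicate 2, and the call was lost with quantile normalization and without anti-PD-1 replicate 1 or 3. Pde4b, a phosphodiesterase that degrades cAMP, had 4.56, 8.65 and 6.24 FPKM in IgG against 4.44, 2.52 and 1.93 FPKM in anti-PD-1 tumors. The log2 fold change of Pde4b was -0.93 (SE 0.30, limma-adjusted p = 0.355, 0.152 to 0.766 over the alternatives). The call was lost without IgG replicate 2 (-0.73) or anti-PD-1 replicate 3 (-0.73), and Pde4b lies on chromosome 4, where the median was -0.40.

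The profile of Ptgfr over the 6 tumors was compared with those of 12409 protein-coding genes, as the root mean square difference of log2(FPKM + 1) after each gene was centered on its mean. The closest were Vim, the mesenchymal intermediate filament, at 0.15, Hbegf, an EGF receptor ligand, at 0.22, Cav2, a caveolin, at 0.24, 0610040J01Rik at 0.24 and Celsr1, a planar cell polarity cadherin, at 0.25. Genes near Ptgfr by this measure share its gap between the groups by construction. The order of the tumors within a group was not shared by all 5. Anti-PD-1 replicate 2 was the highest in Cav2 and 0610040J01Rik and replicate 3 in Ptgfr. In Hbegf the lowest IgG tumor was replicate 3, and in Ptgfr it was replicate 2. The genes closest to Ptgs2 were Plekhs1 at 0.22, the latent TGF-β binding protein gene Ltbp1 at 0.25, Cd24a at 0.26, and Lgals9 and Hcar2 at 0.27. These were likewise chosen for the profile of Ptgs2, with IgG replicates 1 and 2 and anti-PD-1 replicate 2 above the other tumors.

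**Figure D4:**
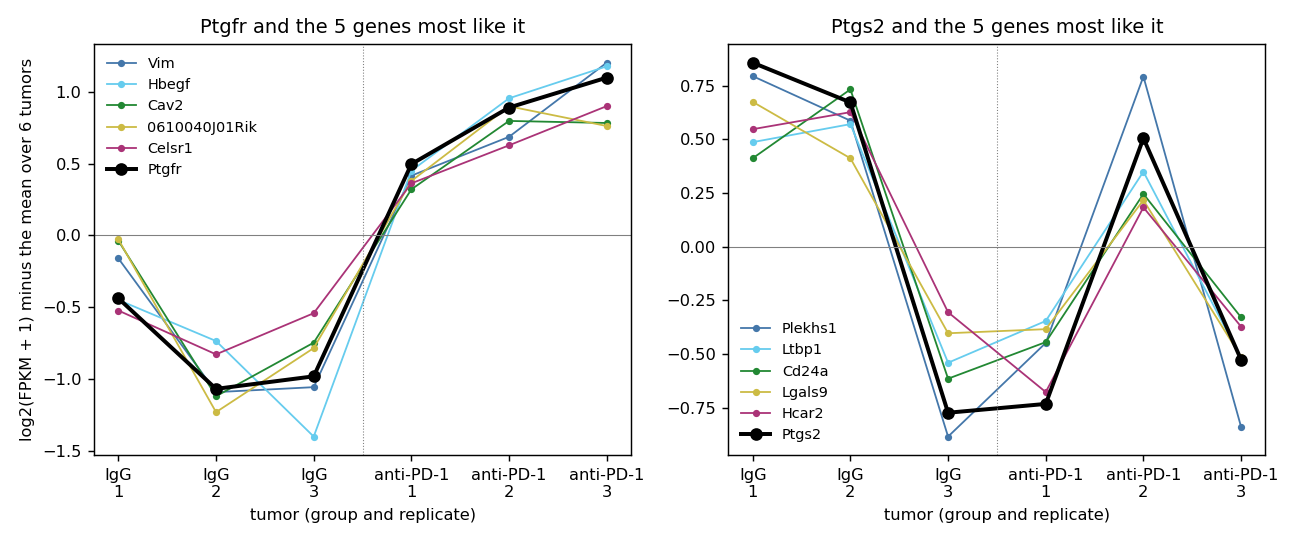
Profiles of Ptgfr (left, black) and Ptgs2 (right, black) with the 5 protein-coding genes of smallest root mean square difference, as log2(FPKM + 1) minus each gene's mean over 6 tumors. Lines only join the points of a gene, and the dotted line parts IgG from anti-PD-1 tumors, at which the Ptgfr profiles step up while the Ptgs2 profiles follow single tumors.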

How the data were processed

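RNAseq of 3 IgG and 3 anti-PD-1 tumors was analyzed, with groups and replicate numbers from the sample labels. Per the methods and labels, the authors trimmed reads with Cutadapt 3.5 and counted them with RSEM 1.3.1 over Bowtie2 2.4.1 on mm10. The authors deposited FPKM values for 54532 gene IDs, and how the FPKM was computed is not given in the sources used here. GENCODE M21 (GRCm38, the build of mm10) matched 54495 IDs. FPKM times merged exon length was within 0.1 of a whole number of reads for 97.0% to 97.3% of the values above 0 in each tumor, all members among them.

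After division by median-of-ratios factors, log2(FPKM + 1) of the genes whose mean FPKM reached 0.5 was compared with limma 3.58.1 in R 4.3.3 (lmFit, eBayes with trend), since FPKM does not allow the count test of the study. The script was tested on simulated reads. Of the overlaps of members with other genes, 1 is not reported here. An exact test of 3 against 3 tumors cannot go below p = 0.1 and was not used. Members and lists were chosen with earlier results of these data known. Named genes were all members, the genes of each list past both thresholds and, where these were fewer than 2, its 2 highest by mean FPKM, and the 5 most like Ptgfr and Ptgs2. Alternatives were another pseudocount, filter or scaling, no trend, a replicate block, each tumor left out, and voom on the reads (chosen after seeing the data).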

Additional observations from a re-analysis of the deposited data

How the results depend on the processing

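Over all 15070 genes, 587 were higher and 685 lower past both thresholds, 0 had an adjusted p under 0.05 and 2721 had groups that did not overlap. With single tumors left out these counts ran from 370 to 1000, from 388 to 1244, from 0 to 12 and from 3454 to 5360. The highest counts came without IgG replicate 1, and the lowest of higher and lower genes without IgG replicate 2. Without anti-PD-1 replicate 3, 455 were lower. With voom on the reads, 640 were higher and 830 lower. The median log2 fold change of the further prostanoid genes (0.04) ran from 0.024 to 0.15 with single tumors left out and was 0.16 with a mean FPKM of at least 2. That of the leukotriene and lipoxygenase genes (0.11) ran from -0.05 to 0.26 and was 0.33 with that filter, where 3 genes remained in the test. That of the cAMP-responsive genes (0.05) ran from -0.15 to 0.037. With the replicate block, 663 genes were higher and 673 lower past both thresholds, the call of Alox12e was lost and Pla2g6 passed both. With a single tumor left out, Mgll ran from 0.35 to 1.13, Pla2g6 from 0.35 to 0.83, Pla2g4a from -1.02 to -0.21, Ptgds from 0.51 to 1.75, Ptges2 from 0.39 to 1.14 and Ptgfrn from -0.03 to 0.64. Both thresholds were passed by the first 3 without IgG replicate 3, by Ptgds without replicate 1 of either group, by Ptges2 without IgG replicate 1 or anti-PD-1 replicate 3 and by Ptgfrn without anti-PD-1 replicate 2. Ptges3 ran from 0.086 to 0.40, and Prxl2b from -0.21 to 0.035. Deviations of same-numbered tumors from their group means had r = -0.16, 0.005 and 0.19, and those of other pairs ran from -0.26 to 0.24. With 3 tumors per group this cannot show whether the replicate numbers pair the tumors. Ptgfr, Ptgs1, Ptgs2, Ptger4 and Hpgd kept their direction in every alternative run, and Ptges and Ptgis did not. With the filter of 2, Ptgfr, Ptgs2 and Ptger4 had no value. Depth limits Ptger1, Ptger3 and Ptgis most, with at most 74 reads per tumor.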
